A study of Mus musculus with 16 samples.

Results

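Insulin, Akt and mTOR signalling is represented here by 33 genes, read through the accession that the array design gives each probe. The genes were chosen by name as core parts of the pathway, with earlier results of these data known. They are 33 of 36799 gene names and identifiers on the array and are measured by 54 of its 55681 probes. The samples are skeletal muscle RNA from male mice aged 21 to 23 weeks, profiled on 16 one-colour Agilent arrays with 4 arrays in each of 4 groups. WT mice carry an intact muscle cannabinoid 1 receptor, and CB1KO mice carry a floxed CNR1 gene deleted by Cre under the ACTA1 promoter, which is active in skeletal muscle, so other cells of the tissue keep the gene. WT_SD and CB1KO_SD mice ate standard chow (SD), with 16.7% of energy as fat and 12.4% as sugar, and WT_HFHS and CB1KO_HFHS mice ate chow high in fat and sugar (HFHS), with 49.2% and 32.2%, in each case for 15 weeks. The breeding text lists Cre as present in both genotypes, so whether WT mice carry Cre is unclear and the genotype was taken from the sample titles. The diet field contradicts the titles of CB1KO_SD and WT_HFHS, and the titles, which match the other labels, were followed. The treatment text also names assignment to vehicle or S961, a blocker of the insulin receptor, without saying which mice received it. The muscle dissected is not named, and the design states that the 4 samples of a group are biological replicates.

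Insulin and IGF1 bind receptor tyrosine kinases that phosphorylate the IRS adaptors, which recruit PI3-kinase and through it PDK1, mTORC2 and Akt. In muscle, Akt phosphorylates the TBC1 domain proteins that hold glucose transporters inside the cell, the GSK3 kinases that restrain glycogen synthase, the FOXO factors that drive atrophy genes, and the TSC complex that holds back Rheb and mTORC1. Much of this control is by phosphorylation and location of the proteins, which transcript levels do not report, and several members are themselves transcribed in response to feeding, FOXO activity or glucocorticoids.

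All values are log2 intensities relative to the 75th percentile of the array, so 1 unit is a 2-fold difference, and levels of different probes are not set against each other. A contrast was called where its Benjamini-Hochberg adjusted p from limma, fitted over 29011 genes, was under 0.05. The share of spots well above background was 56.7% to 75.04% across arrays, and no spot was saturated. All SD arrays lay on 1 slide and all HFHS arrays on the other, with WT in slide row 1 and CB1KO in slide row 2, so diet and slide, and genotype and slide row, cannot be told apart. The 10 skeletal muscle markers were well above background on all 16 arrays. The Cnr1 probe differed between the genotypes by -0.24 ± 0.46 (SE) on SD and -0.14 ± 0.46 on HFHS (limma, adjusted p = 0.933 and 0.923). Whether that probe lies in the deleted part of the gene is not known, so it does not check the labels. The array of CB1KO_SD replicate 2 had the narrowest spread of log2 intensities (SD 2.89) and that of CB1KO_HFHS replicate 1 the widest (3.97), against 3.14 to 3.69 on the other arrays. Over genes with a value on every array, the first principal component, the main axis of variation between arrays, held 52.7% of the variance. Its correlation with the spread of the 16 arrays had an absolute value of 0.973. Among the members, CB1KO_SD replicate 2 was the lowest of its group for 23 of the 25 members with a mean above 0 and the highest for 6 of the 8 with a mean below 0.

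No member of the pathway changed between the genotypes at the threshold. Averaged over diets, 0 of 33 passed, against 0.762% of all genes tested. On SD, 0 of 33 passed against 0.00345% of all genes, and on HFHS 0 of 33 against 0.248%. At an unadjusted p under 0.05, 5 members stood out in the averaged contrast (15.2% of members, 15% of all genes), and 3 on each diet (9.09% of members, against 9.02% of all genes on SD and 9.38% on HFHS). The shares of members are thus near those of all genes. The median genotype difference of the members was -0.09 averaged over diets, -0.11 on SD and -0.08 on HFHS, where the median of all genes was -0.13, -0.12 and -0.14. With normexp background correction and quantile normalization the medians of all genes moved to -0.02, -0.03 and -0.02, and those of the members to -0.03, -0.02 and -0.04, so small negative differences below should be read against these shifts. The 95% interval of the genotype difference lay within 1 log2 unit of 0, a 2-fold difference either way, for 29 of 33 members averaged over diets and for 27 of 33 on each diet. The exceptions in the averaged contrast were Akt1, Grb14, Sgk1 and Foxo3. Of 13 members with more than 1 probe tested, the probes shared the direction of the averaged genotype difference for 10 and differed in it for Irs1, Ptpn1 and Grb2.

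**Figure D1:**
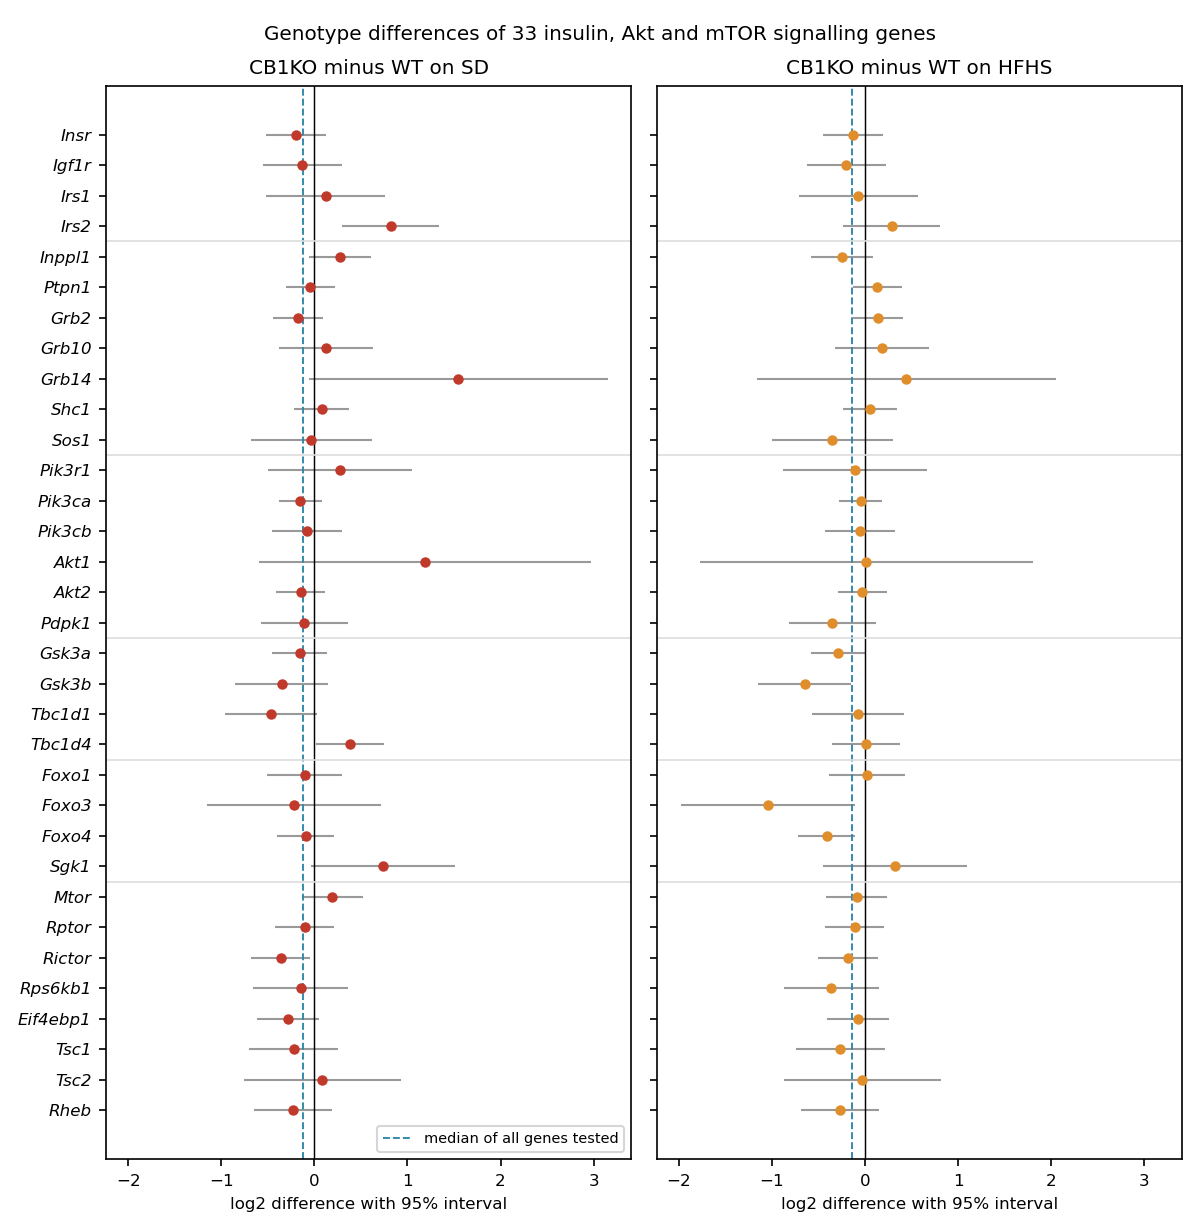
Genotype difference of each of the 33 members (CB1KO minus WT, log2) on SD (left) and HFHS (right), grouped by role, with points for the estimate and bars for the 95% interval. The dashed line is the median of all genes tested, and the wide bars of Akt1, Grb14 and Pik3r1 include spots in a dim corner of 1 array.

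Of the receptors and substrates, Irs2, the insulin receptor substrate induced in fasting, showed the clearest genotype difference. Irs2 stood at 3.54, 3.74, 3.50 and 3.53 in WT_SD and at 3.77, 4.27, 4.67 and 4.88 in CB1KO_SD. On HFHS it stood at 3.16, 3.42, 3.72 and 3.37 in WT and at 3.54, 3.19, 4.01 and 4.10 in CB1KO. The genotypes did not overlap on SD and overlapped on HFHS, with the higher values on both diets in replicates 3 and 4 of CB1KO. Irs2 was the only member whose genotypes did not overlap on SD (3.03% of members, 4.2% of all genes). The difference was 0.82 ± 0.24 (SE) on SD, 0.29 ± 0.24 on HFHS and 0.55 ± 0.17 averaged (limma, adjusted p = 0.323, 0.735 and 0.149). The averaged difference had the smallest adjusted p of any member in a genotype contrast, and it passed when arrays were weighted by quality (0.70, limma adjusted p = 0.0211). With those weights 1986 genes passed in that contrast, against 221 in the main fit. The genotype-by-diet interaction of Irs2 was -0.53 ± 0.34 (limma, adjusted p = 1.000), so a difference between the diets was not shown.

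Insr, Igf1r and Irs1 gave no called difference. The mean level of Insr, the insulin receptor, was 1.44 ± 0.28 (SD, n = 4) in WT_SD, 1.24 ± 0.19 in CB1KO_SD, 1.37 ± 0.15 in WT_HFHS and 1.24 ± 0.10 in CB1KO_HFHS. Its genotype difference averaged over diets was -0.17, with a 95% interval from -0.39 to 0.06. Igf1r, the IGF1 receptor, differed by -0.16, with an interval from -0.46 to 0.13. Irs1, the main IRS protein of muscle insulin signalling, differed by 0.03, with an interval from -0.43 to 0.48, and by -0.21 ± 0.15 by its second probe. Thus a 2-fold genotype difference averaged over diets falls outside the intervals of these 3 transcripts by their brightest probes. Between the diets Irs1 varied more: it measured 3.41 ± 0.34 (SD, n = 4) in WT_SD, 3.53 ± 0.42 in CB1KO_SD, 3.96 ± 0.57 in WT_HFHS and 3.89 ± 0.37 in CB1KO_HFHS. Its diet difference was 0.55 ± 0.30 (SE) in WT, with a 95% interval from -0.09 to 1.19, and 0.36 ± 0.30 in CB1KO (limma, adjusted p = 0.896 and 0.711), and the diets overlapped in both genotypes. The second probe of Irs1 gave 0.16 and -0.04 for the same diet differences.

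Irs2 was also one of the members whose 250 bases before the transcript start hold an E-box, a motif bound by basic helix-loop-helix factors, and is therefore shown with the matching stretches of the other such members. The promoters are those of RefSeq on GRCm38.p6, which held 46 promoters for 30 of the 33 members. The letters CACGTG, which read the same on both strands, were found in 1978 of 32851 promoters of that length (6.02%) and in 4 of the 46 promoters of members, those of Irs1, Irs2, Rheb and Sgk1. The FOXO motif GTAAACA, or TGTTTAC on the other strand, was found in 3.17% of all promoters and in 1 member, Akt1. Each sequence runs 5′ to 3′ on the strand of the gene, with the motif in capitals.
Irs2 promoter, chr8:11008930-11009179, minus strand: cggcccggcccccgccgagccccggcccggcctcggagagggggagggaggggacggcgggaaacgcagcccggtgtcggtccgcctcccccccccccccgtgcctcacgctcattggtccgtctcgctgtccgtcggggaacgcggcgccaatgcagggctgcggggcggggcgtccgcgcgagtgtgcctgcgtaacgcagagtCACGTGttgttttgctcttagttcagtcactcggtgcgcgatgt
Irs1 E-box, chr1:82291541-82291562, minus strand: ggctccgtCACGTGttttgctc
Rheb E-box, chr5:24842444-24842465, minus strand: cgcgcggtCACGTGggtgtgtt
Sgk1 E-box, chr10:21993640-21993657, plus strand: tcctCACGTGttcttggc
Akt1 FOXO motif, chr12:112675031-112675053, minus strand: taccctctTGTTTACactcctgg
The E-box of Irs2 begins 44 bases before the start and that of Irs1 115 bases before it. The genotype differences of the 4 genes with an E-box did not share a direction in the averaged contrast: Rheb stood at -0.25, Irs1 at 0.03, Sgk1 at 0.53 and Irs2 at 0.55. A match describes the letters only.

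Among PI3-kinase, PDK1 and Akt, none of the 6 genes reached an unadjusted p under 0.05 in any contrast by its brightest probe. Akt2, the Akt form required for insulin-stimulated glucose uptake in muscle, was nearly level by its brightest probe: 5.78 ± 0.11 (SD, n = 4) in WT_SD, 5.63 ± 0.21 in CB1KO_SD, 5.82 ± 0.10 in WT_HFHS and 5.79 ± 0.12 in CB1KO_HFHS. Its averaged genotype difference was -0.09, with a 95% interval from -0.28 to 0.10. The other 2 probes of Akt2 gave -0.09 and -0.11. Between the diets its dimmest probe, A_55_P2066523, was lower on HFHS by -0.23 ± 0.13 in WT, without overlap, and by -0.38 ± 0.13 in CB1KO, with overlap (limma over all probes, adjusted p = 0.968 and 0.366), where the brightest probe gave 0.04 and 0.16. Pik3ca and Pik3cb, catalytic subunits of PI3-kinase, differed by -0.10 and -0.06 averaged over diets. Pdpk1, which encodes PDK1, the kinase that phosphorylates the activation loop of Akt, stood at 3.76, 3.75, 3.37 and 3.83 in WT_HFHS and at 3.69, 3.12, 3.26 and 3.24 in CB1KO_HFHS. These groups overlapped through replicate 1 of CB1KO and replicate 3 of WT. The difference on HFHS was -0.35 ± 0.22 (limma, adjusted p = 0.658) and passed with array weights (-0.48, adjusted p = 0.0449). With array weights 2125 genes passed on HFHS, against 72 in the main fit.

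Akt1 is the more widely used Akt form and Pik3r1 the regulatory subunit p85 of PI3-kinase. Each has a spot in a corner of the WT_SD replicate 1 array where part of the spots were dim. The cause of the dimness was not tested. Akt1 stood at -0.82 in WT_SD replicate 1 and at 3.73 to 4.42 on the other 15 arrays. Its probe is printed at 2 spots, and on that array the spot at row 34, column 2 gave an intensity of 12.5 where the spot at row 259, column 53 gave 7488. In the corner of rows 1 to 60 and columns 1 to 30 of that array, 87 of 539 bright spots (16.1%) lay more than 2 log2 units below their median over the arrays. Elsewhere on the array this held for 34 of 17923 spots (0.190%), and in the corner of the other 15 arrays for at most 1 spot. With the corner spots of that array set to missing, an alternative chosen after the data were seen, the Akt1 difference on SD went from 1.19 ± 0.83 to 0.03 ± 0.16 and that of Pik3r1 from 0.27 ± 0.36 to -0.17 ± 0.24. Grb14, an adaptor that binds and inhibits the insulin receptor, also lies in that corner, at row 3, column 9. Grb14 stood at -2.63, 1.91, 1.80 and 1.28 in WT_SD, at 2.24, 1.68, 2.23 and 2.38 in CB1KO_SD, at 1.83, 1.72, 2.50 and 1.46 in WT_HFHS and at 1.85, 2.34, 2.34 and 2.76 in CB1KO_HFHS. The genotypes overlapped on both diets. Without the corner spots, its difference on SD went from 1.54 ± 0.75 to 0.47 ± 0.28, on HFHS it was 0.44 ± 0.26, and averaged over diets 0.46 ± 0.19 (limma, adjusted p = 0.278).

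**Figure D2:**
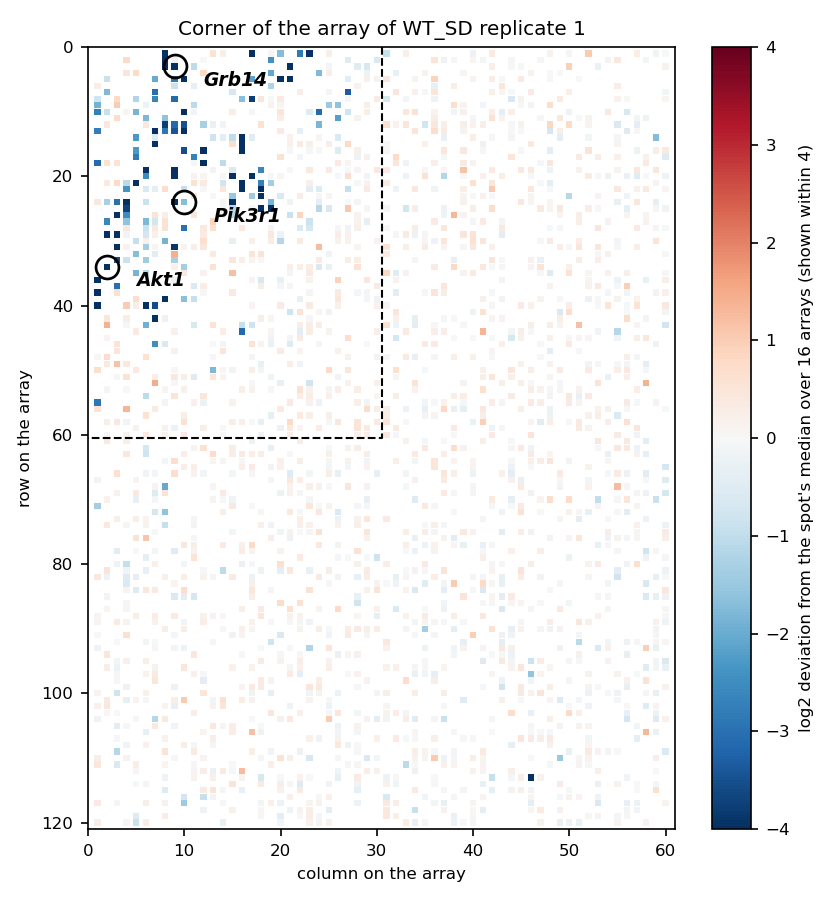
Deviation of each bright spot on the array of WT_SD replicate 1 from that spot's median over the 16 arrays (log2, colour, shown within 4 units), by row and column of the array. Dark blue spots gather inside the dashed corner of 60 rows and 30 columns, where the circled Akt1, Grb14 and Pik3r1 spots lie.

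Both GSK3 kinases stood lower in CB1KO than in WT on both diets, without passing the threshold. Gsk3b, which phosphorylates and restrains glycogen synthase, stood at 4.50, 4.60, 4.18 and 4.58 in WT_HFHS and at 4.11, 3.67, 3.84 and 3.64 in CB1KO_HFHS by its brightest probe. The genotypes did not overlap on HFHS. On SD it stood at 4.64, 4.53, 4.16 and 4.00 in WT and at 3.58, 3.50, 4.48 and 4.38 in CB1KO, with overlap. The difference was -0.65 ± 0.23 (SE) on HFHS, -0.35 ± 0.23 on SD and -0.50 ± 0.16 averaged (limma, adjusted p = 0.378, 0.726 and 0.178). It passed on HFHS with array weights (-0.77, adjusted p = 0.0101) and averaged over diets with the spread of log2 intensities as a covariate (-0.54, adjusted p = 0.0342). Those settings called 2125 and 1737 genes, against 72 and 221 in the main fit.

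Gsk3b has 2 further probes, and both were lower in CB1KO on both diets. By probe A_51_P514412 the averaged difference was -0.39 ± 0.09 and by probe A_66_P104190 it was -0.71 ± 0.16 (limma over 40704 probes, adjusted p = 0.0543 and 0.0603). The first of these did not overlap between the genotypes on HFHS and the second did not on SD. The probes of a gene read the same RNA sample and are not replicates of the genotype. Gsk3a, the sister kinase, stood at 5.25, 5.42, 5.30 and 5.17 in WT_HFHS and at 4.87, 4.93, 5.12 and 5.06 in CB1KO_HFHS, without overlap. Its difference was -0.29 ± 0.14 on HFHS and -0.22 ± 0.10 averaged (limma, adjusted p = 0.543 and 0.298). On SD the difference of Gsk3a was -0.16, with overlap, near the median of all genes (-0.12).

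**Figure D3:**
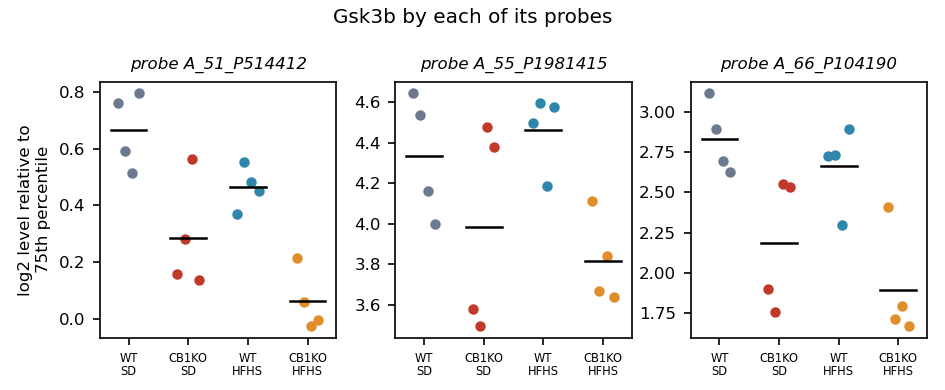
Level of Gsk3b on each of the 16 arrays by each of its 3 probes (log2 relative to the 75th percentile of the array), with a bar at the mean of the 4 arrays of a group. In all 3 panels the CB1KO mean is below the WT mean on both diets, and the scales differ between panels.

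Tbc1d4 and Tbc1d1, the Rab GTPase-activating proteins that Akt phosphorylates to release GLUT4 vesicles, gave no called difference. Tbc1d4 stood at 3.12, 3.74, 3.14 and 3.23 in WT_SD and at 3.77, 3.30, 3.90 and 3.81 in CB1KO_SD, where WT replicate 2 and CB1KO replicate 2 made the groups overlap. The difference was 0.38 ± 0.17 on SD and 0.01 ± 0.17 on HFHS (limma, adjusted p = 0.531 and 0.981). Tbc1d1 stood at 4.87, 5.15, 4.69 and 3.99 in WT_SD against 3.89, 4.07, 4.23 and 4.17 in WT_HFHS, a diet difference of -0.59 ± 0.23 (limma, adjusted p = 0.747). Its second probe gave -0.66 ± 0.25 in WT and -0.79 ± 0.25 in CB1KO between the diets (limma over all probes, adjusted p = 0.765 and 0.298), and by that probe the diets did not overlap in either genotype.

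Foxo3 and Foxo4 stood lower in CB1KO than in WT on HFHS, without passing the threshold. Foxo3, a FOXO factor that drives autophagy and atrophy genes in muscle, stood at -2.97, -2.83, -2.57 and -2.85 in WT_HFHS and at -5.05, -3.48, -3.25 and -3.62 in CB1KO_HFHS. The groups did not overlap, but the probe is dim, well above background on 13 of 16 arrays. These were all 4 arrays of each WT group, 2 of CB1KO_SD and 3 of CB1KO_HFHS. The low side is thus partly near background, and the size of the difference is uncertain. The lowest value, of CB1KO_HFHS replicate 1, comes from the array of widest spread. The difference on HFHS was -1.05 ± 0.44 (limma, adjusted p = 0.464). It was -0.64 without that array, where that of Gsk3b was -0.75, and -0.38 with normexp background correction and quantile normalization. Foxo4, another FOXO factor, stood at -1.76, -1.58, -1.57 and -1.68 in WT_HFHS and at -2.01, -2.30, -2.07 and -1.85 in CB1KO_HFHS, without overlap. Its difference on HFHS was -0.41 ± 0.14 by this probe (limma, adjusted p = 0.347) and -0.44 ± 0.13 by its second probe (limma over all probes, adjusted p = 0.283). The first passed with array weights (-0.43, limma adjusted p = 0.0376), as did 2125 genes, against 72 in the main fit.

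Foxo1, the factor that links insulin to the metabolic genes of fasting, was level. It measured 2.75 ± 0.21 (SD, n = 4) in WT_SD, 2.65 ± 0.38 in CB1KO_SD, 2.70 ± 0.07 in WT_HFHS and 2.72 ± 0.29 in CB1KO_HFHS, with an averaged genotype difference of -0.04 and a 95% interval from -0.33 to 0.24. Sgk1, a kinase related to Akt that PDK1 activates and glucocorticoids induce, stood at 5.16, 5.57, 4.94 and 4.64 in WT_SD and at 5.45, 5.27, 6.25 and 6.28 in CB1KO_SD. On HFHS it stood at 5.16, 4.84, 4.33 and 5.36 in WT and at 4.81, 4.47, 5.72 and 5.98 in CB1KO. The genotypes overlapped on both diets, and replicates 3 and 4 of CB1KO were the high ones on each, as for Irs2. The difference was 0.74 ± 0.36 on SD and 0.53 ± 0.26 averaged (limma, adjusted p = 0.585 and 0.352).

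**Figure D4:**
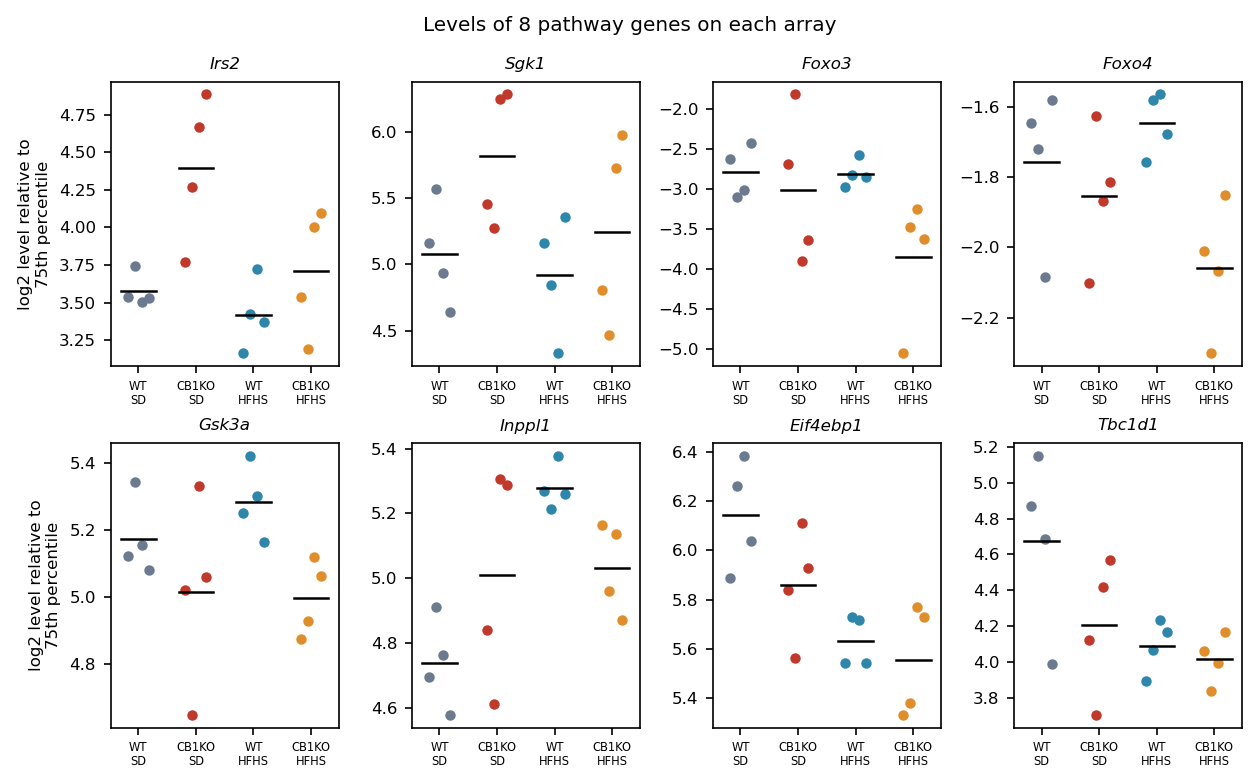
Level of 8 members on each of the 16 arrays (log2 relative to the 75th percentile of the array), with a bar at the mean of the 4 arrays of a group. Irs2 separates the genotypes on SD, Foxo3, Foxo4, Gsk3a and Inppl1 on HFHS, and Eif4ebp1 and Inppl1 separate the diets in WT, while none passed the threshold.

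In the mTOR complexes and the TSC branch, Rictor, the defining subunit of mTORC2, which phosphorylates Akt, reached an unadjusted p under 0.05. Rictor stood at 0.34, 0.16, 0.51 and 0.05 in WT_SD and at 0.11, -0.26, 0.14 and -0.40 in CB1KO_SD. The groups overlapped. The difference was -0.37 ± 0.15 on SD, -0.18 ± 0.15 on HFHS and -0.27 ± 0.11 averaged (limma, adjusted p = 0.491, 0.729 and 0.240). Mtor, the kinase of both complexes, differed by 0.05 averaged over diets, with a 95% interval from -0.18 to 0.28, and Rptor, the mTORC1 scaffold, by -0.11, with an interval from -0.33 to 0.11.

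Rps6kb1, the S6 kinase that mTORC1 activates, Tsc1, a subunit of the TSC complex, and Rheb, the GTPase that activates mTORC1, differed by -0.25, -0.24 and -0.25 averaged over diets (limma, adjusted p = 0.501, 0.488 and 0.417). Among the SD arrays, these 3 genes had their lowest WT_SD value in replicate 4 and stood lower in CB1KO_SD replicates 1 and 2 than in replicates 3 and 4. This order was shared by 14 of 33 members (42.4%) and by 4377 of the 28988 genes for which it could be read (15.1%). The other members with it were Akt2, Gsk3a, Gsk3b, Igf1r, Inppl1, Irs1, Pdpk1, Rptor, Sgk1, Shc1 and Tbc1d1. The order was noticed in the values of these members, so the shares are not a test. CB1KO_SD replicate 2 is the array of narrowest spread. For Rheb the values in this order were 2.45 in WT_SD replicate 4, against 2.61 to 3.09 in the other WT_SD arrays, and 2.22 and 2.19 against 2.71 and 2.92 in CB1KO_SD. Tsc2, the GTPase-activating subunit of the TSC complex, differed by 0.03 averaged over diets.

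The adaptors and negative regulators gave no called difference between the genotypes. On HFHS the genotypes did not overlap for 6 members (18.2% of members, 10.1% of all genes), and CB1KO was lower in all 6 (6.91% of all genes). They were Gsk3a, Gsk3b, Foxo3, Foxo4, Inppl1 and Sos1. Inppl1, which encodes SHIP2, a lipid phosphatase that lowers the PI3-kinase product, stood at 5.27, 5.21, 5.38 and 5.26 in WT_HFHS and at 5.16, 4.96, 5.14 and 4.87 in CB1KO_HFHS, a difference of -0.25 ± 0.15 (limma, adjusted p = 0.659). On SD its difference was 0.27 ± 0.15. Inppl1 was the only member with an unadjusted p under 0.05 for the genotype-by-diet interaction, at -0.52 ± 0.22 (limma, adjusted p = 1.000). Among members 0 of 33 passed the interaction, as did 0% of all genes, of which 3.63% had an unadjusted p under 0.05.

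Sos1, the exchange factor that Grb2 brings to Ras, stood at -2.55, -2.61, -2.91 and -2.79 in WT_HFHS and at -2.95, -3.01, -3.21 and -3.10 in CB1KO_HFHS. Its difference on HFHS was -0.35 ± 0.30 (limma, adjusted p = 0.740). On SD, CB1KO_SD replicate 2 stood at -1.40, against -3.23 to -2.81 in the other CB1KO_SD arrays. Averaged over diets the difference of Sos1 was -0.19 ± 0.21 (limma, adjusted p = 0.690). It was -0.40 without CB1KO_SD replicate 2 (limma, adjusted p = 0.0514), and it passed without that array and CB1KO_HFHS replicate 1, the 2 of unusual spread (-0.42, limma adjusted p = 0.0471). Without both arrays 868 genes passed in that contrast, against 221 in the main fit. Ptpn1, the phosphatase PTP1B that dephosphorylates the insulin receptor, differed by 0.04 averaged over diets by its brightest probe. Its other 2 probes gave -0.31 ± 0.30 and -0.71 ± 0.33, the second well above background on 5 of 16 arrays, and the mean of its probes gave -0.32, so its direction turned with the probe. Grb2 differed by -0.02 by its brightest probe and by 0.22 by its second. The adaptor Shc1 differed by 0.07 and the inhibitory adaptor Grb10 by 0.15.

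Between the diets, which cannot be told apart from the slides, 0 of 33 members passed in WT (0% of all genes) and 0 of 33 in CB1KO (0.0276% of all genes). At an unadjusted p under 0.05, 3 members stood out in WT (9.09% of members, 6.06% of all genes) and 2 in CB1KO (6.06% of members, 9.58% of all genes). The diets did not overlap for 4 members in WT (12.1% of members, 5.4% of all genes), namely Mtor, Inppl1, Shc1 and Eif4ebp1, and for Grb2 in CB1KO (3.03% of members, 3.73% of all genes). Mtor was higher on HFHS by 0.30 in WT and by 0.01 in CB1KO, and Shc1 by 0.26 and 0.24, with overlap in CB1KO for both. Eif4ebp1, the translation repressor that mTORC1 switches off, stood at 5.89, 6.26, 6.38 and 6.04 in WT_SD and at 5.54, 5.73, 5.72 and 5.54 in WT_HFHS. All WT_HFHS arrays were below all WT_SD arrays, with a difference of -0.51 ± 0.16 in WT and -0.31 ± 0.16 in CB1KO (limma, adjusted p = 0.650 and 0.553).

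Inppl1 stood at 4.70, 4.91, 4.76 and 4.58 in WT_SD, below every WT_HFHS array, and differed between the diets by 0.54 ± 0.15 in WT and 0.02 ± 0.15 in CB1KO (limma, adjusted p = 0.642 and 0.967). Irs2 was lower on HFHS than on SD in CB1KO, by -0.69 ± 0.24 (limma, adjusted p = 0.348), and differed by -0.16 ± 0.24 in WT. Grb2 stood at 3.32, 2.81, 3.24 and 3.17 in CB1KO_SD and at 3.32, 3.54, 3.60 and 3.51 in CB1KO_HFHS, where the highest SD array and the lowest HFHS array lie side by side. The difference was 0.36 ± 0.13 (limma, adjusted p = 0.346). The second probe of Grb2, well above background on all 16 arrays, differed by 0.01 between the same groups, with overlap.

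Other genes of the pathway were read from lists that complement the 33. The lists were chosen with earlier results of these data known, so a share beside that of all genes describes them and is not a test. Of 42 measured insulin, PI3-kinase and Akt genes outside the 33, 1 rose and 1 fell in CB1KO averaged over diets (0.762% of all genes passed), 0 passed on SD (0.00345%) and 1 rose on HFHS (0.248%). The median averaged difference of that list was -0.04. Its share of genes at an unadjusted p under 0.05 by limma was 21.4% averaged over diets, against 15% of all genes. It was 19% on SD (9.02% of all genes) and 26.2% on HFHS (9.38%), where 5 genes were higher and 6 lower in CB1KO. Sgk2, a kinase of the same family as Sgk1, stood at -6.82, -6.36, -6.52 and -6.53 in WT_HFHS and at -2.89, -2.25, -1.40 and -1.83 in CB1KO_HFHS. It was not well above background on any WT array, and was well above it on 2 CB1KO_SD and all 4 CB1KO_HFHS arrays. With each WT value raised to the lowest intensity called well above background on its array, Sgk2 was 6.45-fold higher in CB1KO on HFHS. That is 2.69 on the log2 scale, and the values as measured passed (limma, adjusted p = 0.00540). Sgk2 also passed averaged over diets (limma, adjusted p = 0.00345). On SD the CB1KO mean lay below the mean of the WT values so raised, and no such fold is given for SD or for the average. With normexp background correction and quantile normalization the differences were 1.69 on HFHS and 1.18 averaged (log2). The size of the rise thus depended on the processing, and 6.45-fold is not a lower bound. These calls held in each of the 16 fits that left out 1 array and in the 14 other alternatives that could be fitted for this gene.

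Shc2, an SHC adaptor expressed mainly in neurons, stood at 0.75, 0.67, -0.04 and -0.61 in WT_SD and at -1.22, -0.82, -1.13 and -0.46 in CB1KO_SD. On HFHS it stood at 0.37, 0.21, -0.27 and 0.44 in WT and at -0.26, -1.06, -1.30 and -1.31 in CB1KO, so the genotypes overlapped on both diets, on HFHS by 1 array of each. It fell by 1.13 on the log2 scale averaged over diets (SE 0.22, limma adjusted p = 0.0370). This call was lost, at adjusted p = 0.0574 to 0.0896, without any 1 of 10 arrays: WT_SD 1, 2 or 3, CB1KO_SD 1, WT_HFHS 1, 2 or 4, or CB1KO_HFHS 2, 3 or 4. It was also lost with the deposited scores (0.105), with no filter on dim probes (0.0513) and with the replicate number as a block (0.0675). The insulin-like growth factor Igf2 (1.33 ± 0.34), the vesicle GTPase Rab10 (-0.34 ± 0.09) and the Akt inhibitor Trib3 (-0.51 ± 0.15) did not pass (limma, adjusted p = 0.0900, 0.1003 and 0.130).

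Of 42 further mTOR pathway genes, none passed in any contrast. At an unadjusted p under 0.05 there were 6 in the averaged contrast by limma (14.3% of the list, 15% of all genes). The smallest p values were those of Ulk1, the autophagy kinase that mTORC1 inhibits (-0.41 ± 0.13), Rragd, a Rag GTPase of lysosomal mTORC1 (-0.42 ± 0.14), Eif4ebp2, a relative of Eif4ebp1 (-0.26 ± 0.10), and Ddit4, the stress-induced mTORC1 inhibitor REDD1 (1.65 ± 0.63), with limma adjusted p = 0.170, 0.173, 0.230 and 0.240.

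Of 21 genes linked to FOXO activity, 2 rose averaged over diets (0.31% of all genes rose) and 1 on HFHS (0.176%). The median averaged difference of the list was -0.11. At an unadjusted p under 0.05 by limma, 33.3% of the list stood out averaged over diets, against 15% of all genes. The share was 14.3% on SD (9.02% of all genes) and 28.6% on HFHS (9.38%), where 3 genes were higher and 3 lower in CB1KO. This list too was chosen with earlier results of these data known, so the shares are not a test. Gadd45a, a stress gene that marks muscle atrophy, stood at 2.45, 2.43, 2.59 and 2.73 in WT_HFHS and at 3.44, 3.49, 3.87 and 3.77 in CB1KO_HFHS, without overlap. On SD its values overlapped, from 2.56 to 3.15 in WT and from 2.88 to 3.33 in CB1KO. It rose by 1.09 ± 0.17 on HFHS and 0.64 ± 0.12 averaged (limma, adjusted p = 0.0178 and 0.0286). The HFHS call was lost without WT_HFHS 1 or 2 or CB1KO_HFHS 3 or 4 (adjusted p = 0.0625 to 0.0870), and the averaged call without WT_SD 1, CB1KO_SD 4, WT_HFHS 1, 2 or 4, or CB1KO_HFHS 3 or 4 (0.0530 to 0.0757) and with slide as a block (0.0870).

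Cdkn1a, the cell cycle inhibitor p21, stood at 1.75, 1.61, 0.98 and 0.55 in WT_SD, at 2.20, 1.99, 2.03 and 2.70 in CB1KO_SD, at 0.15, 0.30, 1.05 and 0.12 in WT_HFHS and at 1.48, 1.79, 3.37 and 3.19 in CB1KO_HFHS. The genotypes did not overlap on either diet. It rose by 1.53 ± 0.29 averaged over diets (limma, adjusted p = 0.0314). The call was lost without WT_SD 1, 3 or 4, CB1KO_SD 1 or 4, WT_HFHS 1, 2 or 4, or CB1KO_HFHS 3 or 4 (adjusted p = 0.0521 to 0.0802), and with the mean of its probes (0.73, adjusted p = 0.109) and with the replicate number as a block (adjusted p = 0.0823). The ubiquitin ligases Fbxo32 (-0.46 ± 0.19) and Trim63 (-0.51 ± 0.21), the best known FOXO targets of muscle atrophy, did not pass (limma, adjusted p = 0.272 and 0.268).

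**Figure D5:**
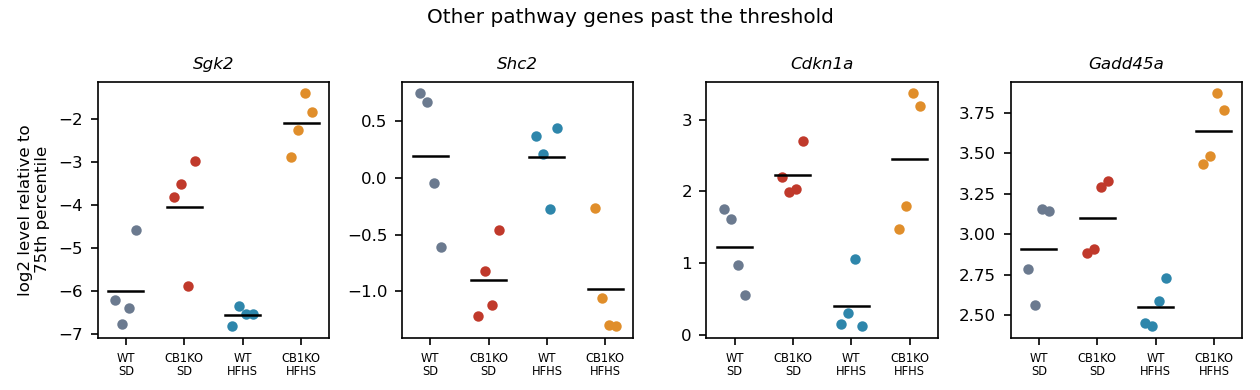
Level on each of the 16 arrays of the 4 genes of the other lists that passed the threshold in a genotype contrast (log2 relative to the 75th percentile of the array), with a bar at the mean of the 4 arrays of a group. Sgk2 in both WT groups is not well above background, and Sgk2, Gadd45a and Cdkn1a separate the genotypes on HFHS.

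The levels of fibre type and other cell type markers varied beside these values. The summed level of 11 slow-fibre genes ranged from 7.26 to 9.28 (log2) in WT_SD, 9.42 to 10.2 in CB1KO_SD, 8.03 to 10.6 in WT_HFHS and 6.54 to 10.3 in CB1KO_HFHS. On SD the summed slow-fibre levels did not overlap between the genotypes. All 11 slow-fibre genes were higher in CB1KO on SD, with a median difference of 2.54. Of these, 3 had an unadjusted p under 0.05 (27.3% of the list, 9.02% of all genes) and 0 passed the threshold by limma. The summed levels of the other cell type markers overlapped between the genotypes on each diet, from 7.20 to 8.98 over all arrays for 10 adipocyte genes and from 5.94 to 6.81 for 10 macrophage genes. Gene by gene, 9 of 10 adipocyte genes were lower in CB1KO on SD, with a median difference of -1.01, and 0 had an unadjusted p under 0.05 by limma. On HFHS, where Sgk2 and Gadd45a passed, 9 of 10 macrophage genes were higher in CB1KO, with a median difference of 0.69. Of these, 3 had an unadjusted p under 0.05 (30% of the list, 9.38% of all genes) and 0 passed the threshold by limma. The part of these marker genes in the Irs2, Tbc1d4 and Rictor differences on SD and in those of Sgk2 and Gadd45a on HFHS was not tested. In bulk tissue, more cells of a type and more RNA per cell cannot be told apart.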

How the data were processed

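Per the file headers, the scanner files were made by the authors with Feature Extraction 11.5.1.1 and hold a processed intensity per spot, corrected for background within the array. The deposited table of the whole series gives each spot a score, which equalled the log2 processed intensity minus its mean and divided by its SD on each array, to within 0.005, and was used as an alternative. Each array had 62976 spots, 59305 of them not controls. The log2 processed intensity minus the 75th percentile of the array was analysed; flagged outlier spots were set to missing (0.0177% of tested values), none of them leaving a member without a value, and repeat spots of a probe were averaged. A probe was kept where at least 4 of the 16 arrays had it well above background, and a gene was read from its brightest kept probe. All 33 members and 52 of their 54 probes were kept. Of the probes, 28026 took a symbol from a RefSeq table by accession and 27655 kept the identifier of the file. The 4 group means were estimated together from the 16 arrays with limma 3.58.1 (lmFit, eBayes, R 4.3.3), and p values are two-sided and Benjamini-Hochberg adjusted over 29011 genes, or 40704 probes. The precision is limited by the 4 arrays of a group. The script was tested on simulated data.

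The members and lists were chosen with earlier results of these data known. All 33 members are named; described in depth are those with an unadjusted p under 0.05 or no overlap between groups, and Insr, Irs1, Irs2, Akt1, Akt2, Mtor and Foxo1. Of the other lists, genes past the threshold are named, or else up to 4 of a list with the smallest p in the averaged contrast; Fbxo32 and Trim63, and the fuller values of Sgk1, Pdpk1, Pik3r1, Grb14 and Rheb, were added after their values were seen. Alternatives were other normalizations, filters, probe rules, variance models and blocks, array weights, and leaving out arrays.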

Additional observations from a re-analysis of the deposited data

Results flagged for a closer look

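In 6 of 132 tests of a member within a group of 4 arrays, 1 array stood apart from the other 3 by Dixon's test at its 95% critical value. Chance flags about 1 in 20 such groups, and 4.55% were flagged. Akt1 at -0.82 and Grb14 at -2.63 in WT_SD replicate 1 lie in the dim corner of that array. Mtor was low on the same array, at 0.41 against 0.67 to 0.68 in the other WT_SD arrays, and its spot lies outside the corner. Irs2 was high in WT_SD replicate 2, at 3.74 against 3.50 to 3.54. Pik3r1 was low in WT_HFHS replicate 3, at -0.53 against -0.12 to -0.09. Tsc2 was high in CB1KO_SD replicate 2, the array of narrowest spread, at -0.23 against -1.94 to -1.75.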

How the results depend on the processing

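Of the 33 members, 0 passed in each of the 6 contrasts, and this count held in 31 alternatives (30 for the interaction), leaving out each array in turn included (0 to 0), with these exceptions. In the averaged genotype contrast the count was 1 with array weights (Irs2), 1 with the spread of log2 intensities as a covariate (Gsk3b) and 1 when CB1KO_SD replicate 2 and CB1KO_HFHS replicate 1, the narrowest and widest arrays, were both dropped (Sos1). On HFHS it was 3 with array weights (Pdpk1, Gsk3b and Foxo4). The cause was not tested. The count of all genes called moved more: averaged over diets it was 221, from 59 without WT_HFHS replicate 2 to 601 without CB1KO_SD replicate 2, 133 with no filter on dim probes, 868 when both were dropped, 1737 with the covariate and 1986 with array weights. On HFHS it was 72, from 15 without CB1KO_HFHS replicate 3 to 134 without CB1KO_HFHS replicate 1, and 2125 with array weights. On SD it was 1, from 0 to 12 with 1 array left out, and 226 when the narrowest and widest arrays were both dropped. The sign of the difference was the same in every alternative for 22 members in the averaged contrast, 17 on SD and 20 on HFHS. No paired analysis was the main one, since replicate numbers are slide columns. Of 24 correlations over all genes between same-numbered arrays 8 were above 0.1, and 5 of 16 arrays correlated best with their own number. The main axis of variation over all genes followed the array spread, so these correlations cannot show whether single genes share an effect of slide column. With the replicate number as a block, 0 members passed in each contrast and the counts of all genes were 59 averaged over diets, 36 on HFHS and 0 for diet in CB1KO. Slide as a block could be fitted only for the averaged contrast.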
